A study of Mus musculus with 30 samples.

Results

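Transcripts of the cells that build brain vessels were followed in sorted astrocytes. They were 6 endothelial genes (Vwf, Cldn5, Pecam1, Cdh5, Flt1 and Kdr), 2 pericyte genes (Rgs5 and Pdgfrb) and 2 smooth muscle genes (Tagln and Acta2). All were chosen by name as markers of these cell types, with earlier results of these data known. They made up 10 of the 18193 genes with a usable probe set, and all 10 were among the 15726 that passed a filter on dim genes. Every level below is the log2 of the authors' RMA intensity for the probe set with 1 symbol and the highest mean over the 30 arrays. A level of 5 was the filter, which a gene had to reach on at least 3 arrays.

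Astrocytes were sorted by their green fluorescence from brains of young adult mice of the strain Tg(Aldh1l1-eGFP) OFC789Gsat on a Swiss Webster background, in which Aldh1l1 regulatory sequence drives the reporter. All groups carried this transgene and all mice were labelled male. Stroke groups had a transient middle cerebral artery occlusion with reperfusion (MCAO), and their controls had surgery without occlusion (sham). The MCAO groups held 5 arrays at 1 day, 3 at 3 days and 3 at 7 days, and the sham groups held 4, 3 and 3 arrays. Neuroinflammation groups had 5 mg/kg of Escherichia coli lipopolysaccharide (LPS) into the peritoneum (5 arrays), and their controls endotoxin-free saline (4 arrays), all at 1 day. The labels call the arrays biological replicates but do not say whether each came from its own mouse. The p-values therefore cover the spread between these samples, which may be technical in part.

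Endothelial cells line the vessel, seal it with tight junctions and, in the brain, form the blood-brain barrier. Pericytes sit in the basement membrane of capillaries, and smooth muscle cells wrap arteries and arterioles with a contractile actin coat. Both mural types depend on PDGF-B released by endothelium and sensed by the receptor that Pdgfrb encodes. Astrocyte endfeet cover these vessels, so vessel fragments can come along with dissociated astrocytes.

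Upstream sequence is shown for Cldn5, whose level spanned the widest range over the arrays, and for Rgs5, the transcript called after LPS. RefSeq promoter entries of GRCm38.p6 matched 5 of the 10 genes (Cldn5, Flt1, Kdr, Rgs5 and Acta2). Each run is the 250 bases before the annotated start, 5′ to 3′ on the gene's strand. Capitals mark the 4-base core of ETS factor sites, GGAA or its reverse complement TTCC, which members of that family active in endothelium, such as ERG and FLI1, bind.
Cldn5, chr16:18776597-18776846, plus strand: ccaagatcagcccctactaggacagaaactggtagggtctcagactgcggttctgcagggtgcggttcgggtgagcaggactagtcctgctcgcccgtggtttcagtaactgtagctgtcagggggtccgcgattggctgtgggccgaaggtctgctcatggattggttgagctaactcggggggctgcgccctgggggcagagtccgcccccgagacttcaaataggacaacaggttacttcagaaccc
Rgs5, chr1:169655251-169655500, plus strand: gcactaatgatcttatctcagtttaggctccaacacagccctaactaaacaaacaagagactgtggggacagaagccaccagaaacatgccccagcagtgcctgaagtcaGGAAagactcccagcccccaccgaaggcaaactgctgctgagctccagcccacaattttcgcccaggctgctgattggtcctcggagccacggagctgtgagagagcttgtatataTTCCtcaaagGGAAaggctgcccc
The core was absent from the Cldn5 window and occurred 3 times in that of Rgs5. It occurred 4 times each in those of Flt1 and Kdr and 3 times in that of Acta2. It is common, since 93.4% of 32851 promoter windows of the same length held at least 1 copy, with a median of 3. These matches describe the letters only.

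The astrocyte label was checked first. All 12 astrocyte markers were at or above log2 5 on every array, with mean levels from 12.49 to 13.60, and Aldh1l1 lay between 11.13 and 13.71. Labels and data differed on sex. Xist, the female-specific RNA, was between 11.07 and 12.78 on 7 arrays (LPS arrays 3 to 5, saline arrays 2 to 4 and MCAO array 4 at 1 day) and at most 6.88 on the other 23. Y-linked Eif2s3y was at most 4.0 on the 6 injection arrays but at 9.52 on MCAO array 4, which thus carried both. LPS array 5 stood apart, with a median intensity of 94 against 68 to 73 elsewhere. Summed intensity divided the arrays into 16 brighter and 14 dimmer ones, and array 3 of each 3-day group was bright while arrays 1 and 2 were dim. Values without some of these arrays are given beside the results on the 10 transcripts and the vessel lists.

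Vascular transcripts were not at the same level in all experiments. The mean of the 6 endothelial transcripts lay between 7.08 and 9.47 on the 9 arrays of 1-day surgery and between 5.44 and 6.69 on the other 21, without overlap. Cldn5, the main tight junction claudin of brain endothelium, averaged 10.08 ± 1.05 (SD, n = 5) in the MCAO group and 10.42 ± 0.99 (n = 4) in the sham group at 1 day. It averaged 7.60 and 7.17 in MCAO and sham at 3 days, 5.80 and 5.94 at 7 days, and 7.64 and 6.58 after LPS and saline. Flt1, which encodes VEGF receptor 1, was above its highest level elsewhere (6.85) on all 9 of the 1-day surgery arrays. Kdr, which encodes VEGF receptor 2, and Cldn5 were so on 8 of 9. Which of day, surgery and array processing this goes with cannot be told apart, and it was not tested.

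Pecam1 and Cdh5, which encode adhesion molecules of endothelial junctions, were dim. Pecam1 stayed between 4.70 and 5.39 outside 1-day surgery and reached 5 on 22 of the 30 arrays, and Cdh5 reached it on 26. In order of group means, Pecam1, Cdh5 and Vwf were highest in MCAO at 1 day, and Cldn5, Flt1, Kdr, Rgs5 and Acta2 in sham at 1 day. Arrays of neighbouring groups in these orders overlapped, except between 1-day MCAO and 3-day MCAO for Flt1, 3-day MCAO and 3-day sham for Cdh5, and 3-day and 7-day MCAO for Rgs5. Tagln was highest in MCAO at 3 days (9.15), then at 1 day (8.31) and 7 days (7.72), and the lowest MCAO array was at 7.32. Of the other arrays only sham array 3 of 3 days, at 7.39, was above that. Pdgfrb ran in another order, highest after saline (11.77 ± 0.33, n = 4) and lowest in MCAO at 1 day (10.35 ± 0.40, n = 5).

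**Figure D1:**
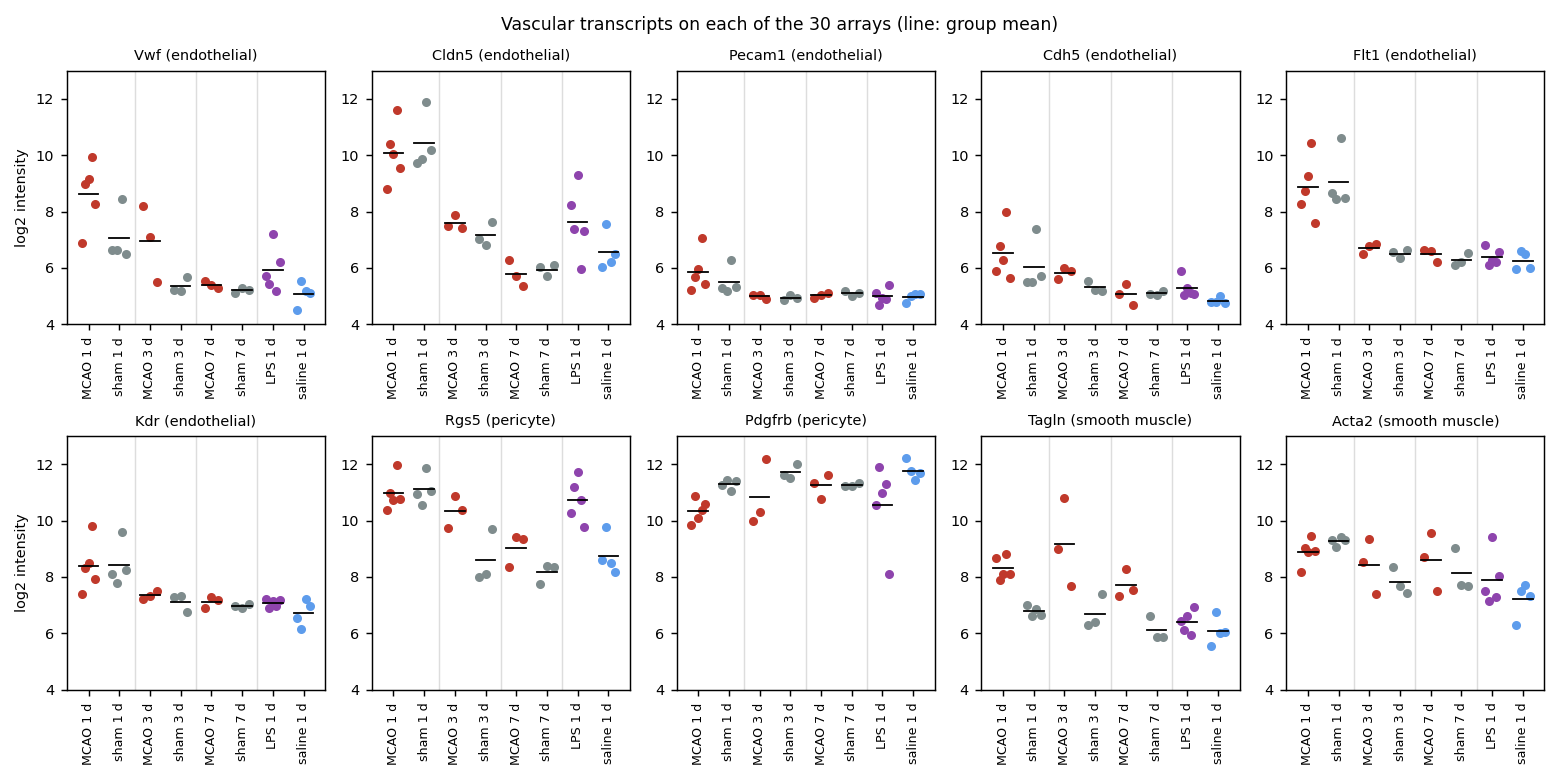
Each panel plots the log2 intensity of a transcript on all 30 arrays, by group, with points for arrays and a line for the group mean. Endothelial transcripts are highest in the 2 groups of 1-day surgery, Tagln is higher in each MCAO group than in its sham group, and Pdgfrb is highest after saline.

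The 1-day surgery arrays that carry the number 4 in their description, MCAO array 4 and sham array 3, were the 2 highest of all 30 for Cldn5, Pecam1, Cdh5, Flt1, Kdr and Rgs5. For Vwf MCAO array 4 was the highest (9.92), while sham array 3 (8.46) was below 2 other MCAO arrays. LPS array 2, which carries the same number in its own experiment, was not among the highest for the endothelial transcripts, but was high for Rgs5 (11.2). The arrays of number 4 below are those of 1-day surgery. MCAO array 4 exceeded the mean of its group's other arrays by 1.49 to 1.97 in the 6 endothelial transcripts, and sham array 3 by 1.04 to 2.06. Rgs5 followed, with 1.27 and 1.03, while Pdgfrb did not (0.01 and -0.34). Other marker lists were high on the same arrays. The 10 neuronal markers averaged 8.84 on MCAO array 4 and 9.06 on sham array 3, against at most 7.69 elsewhere. The 19 measured pericyte markers averaged 7.40 and 7.44, against at most 6.83. Their part in the levels of the vascular transcripts was not tested.

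Over the 30 arrays the endothelial mean correlated with the 24 measured endothelial identity genes (r = 0.98), with the blood-brain barrier list (0.92), with neuronal markers (0.87) and with the pericyte list (0.83). Without the arrays of number 4 the values were 0.96, 0.88, 0.74 and 0.68 (n = 28). Erythroid markers gave 0.78 (0.69 without the arrays of number 4), oligodendrocyte markers 0.76 (0.67) and microglia and macrophage markers 0.62 (0.60). Smooth muscle markers gave 0.29 and astrocyte markers 0.45. After group means were subtracted the neuronal markers kept 0.85 and the pericyte list 0.82. Oligodendrocyte markers then gave 0.47, smooth muscle 0.46, erythroid 0.34, microglia and macrophage 0.20 and astrocyte markers -0.16. These are descriptions, since arrays of an experiment share their processing.

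**Figure D2:**
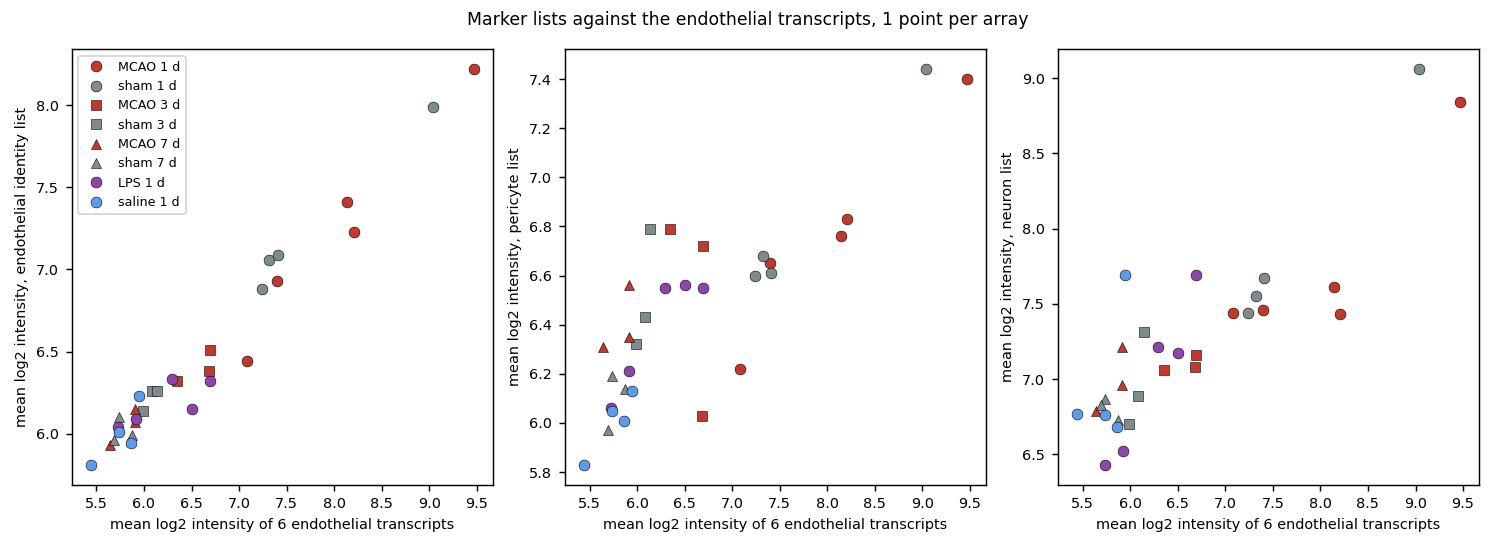
Each point is an array, with the mean log2 intensity of the 6 endothelial transcripts on the horizontal axis and the mean of the endothelial identity, pericyte or neuron list on the vertical. The 1-day MCAO and sham arrays of description number 4 lie at the upper right of all 3 panels, at 9.47 and 9.04 on the horizontal axis.

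The genes whose profile was most like the endothelial mean were She (r = 0.969 over 30 arrays, 0.943 without the arrays of number 4), Tek, the angiopoietin receptor (0.968 and 0.939), and Cd93 (0.961 and 0.926). After group means were subtracted they kept 0.918, 0.897 and 0.912. For the mean of the 4 mural transcripts the nearest were Abcg2, an efflux transporter (0.874), the G protein signalling regulator Rgs4 (0.869) and the sodium channel subunit gene Scn3b (0.859), with 0.641, 0.663 and 0.776 after group means were subtracted. Pdgfrb did not follow the mean it is part of (-0.171).

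What MCAO did within a day was asked with 5 MCAO and 4 sham arrays. Of the 10 vascular transcripts 2 rose, Vwf and Tagln, and 0 fell. Over all genes tested 12.7% were called, 6.49% higher and 6.17% lower. Arrays of the groups did not overlap for 27.3% of genes. The members' median log2 fold was -0.09, and that of all genes -0.05. The other smooth muscle transcript, Acta2, and the other 5 endothelial transcripts did not pass the test.

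Vwf encodes von Willebrand factor, which endothelial cells store and release for clotting. Its levels were 6.88, 8.97, 9.14, 9.92 and 8.27 on the MCAO arrays, against 6.63, 6.64, 8.46 and 6.51 on the sham arrays. MCAO array 1 was the lowest of its group and sham array 3 the highest of its own, above 2 of the 5 MCAO arrays, so the groups overlapped. Vwf rose 2.98-fold (log2 1.57 ± 0.51 SE, limma adjusted p = 0.0395). The call was lost when any of 6 of the 9 arrays was left out, MCAO arrays 2, 3 and 4 and sham arrays 1, 2 and 4 (adjusted p from 0.0814 to 0.135). Leaving out the Xist-high arrays gave log2 1.25 (adjusted p = 0.0895), and fitting the 1-day surgery arrays alone gave an adjusted p of 0.0675.

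In the 1-day surgery arrays the number in the description was taken to pair samples, and MCAO array 1 has no sham partner. This pairing comes from the data and a shared label, so the paired values rest on it. Deviations from group means correlated at r = 0.23, 0.19, 0.5 and 0.16 in the 4 pairs. Within the 4 pairs Vwf was higher after MCAO in 4 of 4, by 2.34, 2.50, 1.46 and 1.76. With the pair number as a block the log2 fold was 2.01 ± 0.42 SE (adjusted p = 0.00309). The unpaired MCAO array 1 does not inform that fit, and leaving it out without a block also gave 2.01 (adjusted p = 0.00636). The blocked fit called 1218 genes, against 1424 without MCAO array 1 and 1991 with all arrays and no block.

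Among the other endothelial transcripts no change passed the test. Pecam1 was at 5.21, 5.67, 5.98, 7.07 and 5.43 after MCAO and at 5.29, 5.17, 6.30 and 5.32 after sham surgery (log2 0.35 ± 0.25 SE, adjusted p = 0.487). Within pairs it was higher in 4 of 4, by a mean of 0.52 ± 0.33 (SD, n = 4), and with the block it passed the test (adjusted p = 0.0423). Cdh5 had a log2 fold of 0.50 ± 0.35 and was higher in 3 of 4 pairs. Cldn5, Flt1 and Kdr had log2 folds of -0.34, -0.19 and -0.04, and their 95% intervals ran from -1.42 to 0.73, from -1.0 to 0.63 and from -0.73 to 0.64. Cldn5 and Flt1 were higher in 2 of 4 pairs and Kdr in 3 of 4.

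Tagln encodes transgelin, an actin-binding protein abundant in smooth muscle. It was at 8.68, 7.89, 8.09, 8.80 and 8.09 on the MCAO arrays and at 7.00, 6.60, 6.87 and 6.64 on the sham arrays. Every MCAO array exceeded every sham array, as for 12.1% of genes. It rose 2.89-fold (log2 1.53 ± 0.39 SE, adjusted p = 0.00891; 0.0453 with the pair block), and was higher in 4 of 4 pairs. The call held in all 9 fits that left out an array. Acta2, which encodes the smooth muscle actin isoform, was at 8.17, 9.02, 8.90, 9.44 and 8.92 after MCAO against 9.31, 9.07, 9.43 and 9.30 after sham surgery (log2 -0.39 ± 0.45 SE, adjusted p = 0.744). The Acta2 probe set is of a kind that can match more than 1 transcript. Of 20 tested genes of the smooth muscle list 1 rose, Cnn2 (log2 0.92, adjusted p = 0.0393; 0.0655 with the pair block and 0.0731 without the Xist-high arrays). Leaving out an array kept the Cnn2 call only for MCAO arrays 3 and 5 and sham array 3 (adjusted p up to 0.134). The summed intensity of the 24 measured list genes was 4073 to 5979 on MCAO arrays and 3146 to 4511 on sham arrays, with 17 to 19 and 17 to 18 of them at or above log2 5. The mean log2 level of the list overlapped, at 6.29 to 6.55 on MCAO arrays and 6.25 to 6.49 on sham arrays. The median log2 fold of its 20 tested genes was 0.06. What part these list genes had in the Tagln result was not tested.

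Pericyte transcripts did not pass the test at 1 day. Rgs5, a regulator of G protein signalling much used as a pericyte marker, was at 10.38, 10.97, 10.73, 11.98 and 10.76 after MCAO and at 10.95, 10.54, 11.88 and 11.06 after sham surgery (log2 -0.14 ± 0.41 SE, adjusted p = 0.936). Pdgfrb was at 9.84, 10.86, 10.10, 10.36 and 10.60 after MCAO and at 11.25, 11.42, 11.03 and 11.41 after sham surgery. All MCAO arrays were below all sham arrays, as for 15.2% of genes, and Pdgfrb was lower in 4 of 4 pairs. The log2 fold was -0.93 ± 0.48 SE (adjusted p = 0.249), and a second Pdgfrb probe set gave -0.78. Fitted on the 1-day surgery arrays alone, whose own spread was smaller, its adjusted p was 0.00462, and with the pair block it was 0.514.

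**Figure D3:**
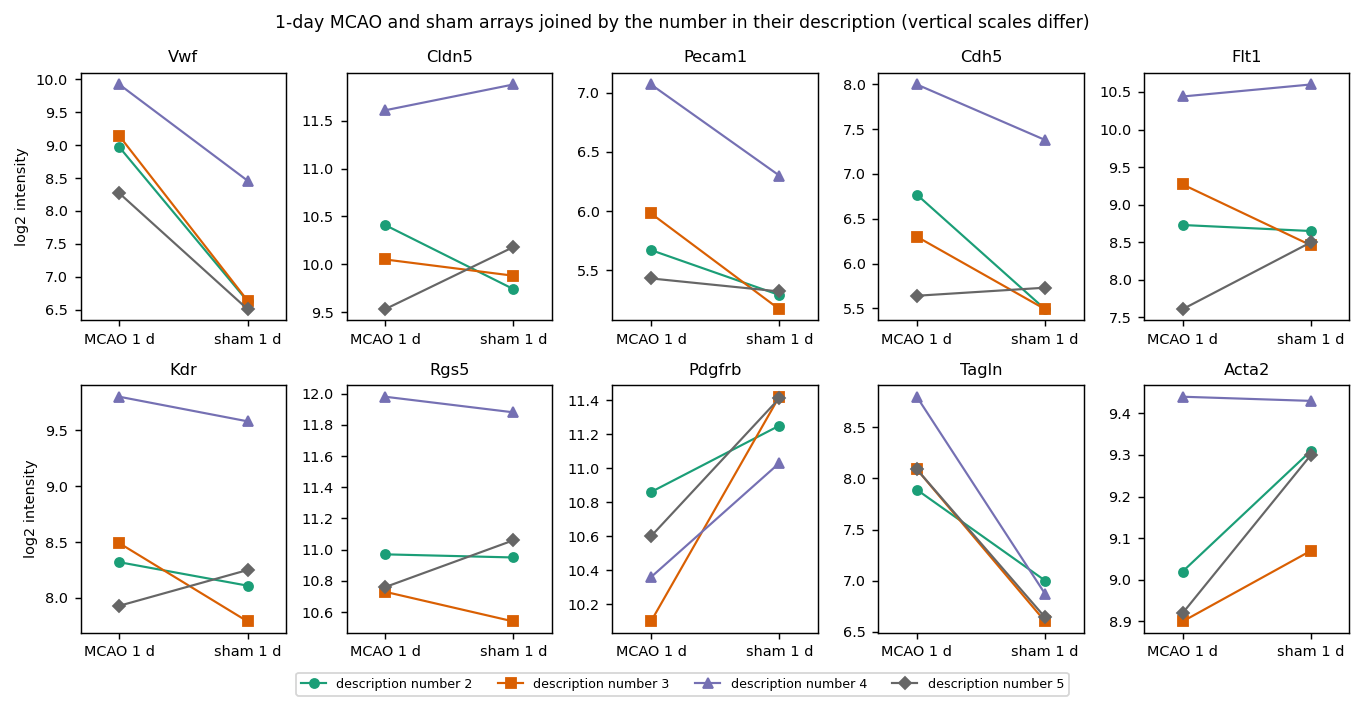
Lines join the 1-day MCAO array (left) and sham array (right) that share a description number, with log2 intensity on the vertical axis and a scale of its own per transcript. Vwf, Pecam1 and Tagln are higher after MCAO in 4 of 4 pairs, Pdgfrb is lower in 4 of 4, and number 4 is the upper line of every endothelial transcript.

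At 3 days, with 3 arrays a group, Tagln alone of the 10 transcripts was called. Over all genes 0.674% were called, 0.61% higher and 0.0636% lower, and 6.94% had all MCAO arrays below all sham arrays. The members' median log2 fold was 0.48 against 0.01 for all genes. Above 0 were 9 of the 10 and 8143 of all 15726 genes. Tagln was at 8.99, 10.80 and 7.67 on the MCAO arrays and at 6.29, 6.39 and 7.39 on the sham arrays, without overlap, as for 5.74% of genes. It rose 5.5-fold (log2 2.46 ± 0.48 SE, adjusted p = 0.0147). On the 4 dim arrays the log2 fold was 3.55 (adjusted p = 0.00177), while the bright pair of arrays 3 differed by 0.27. The call was lost without MCAO array 1 or 2 or sham array 1 or 2 (adjusted p from 0.0668 to 0.178), and on the 6 arrays alone (0.437). Of the 20 tested smooth muscle list genes 0 were called, with a median log2 fold of 0.29. The summed intensity of the list was 4389 to 6482 on MCAO arrays and 3207 to 4414 on sham arrays. Its mean log2 level was 6.58 to 6.96 on MCAO arrays and 6.32 to 6.54 on sham arrays, without overlap. The part of the list in the Tagln result was not tested.

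Rgs5 was at 9.72, 10.88 and 10.37 on the MCAO arrays and at 8.0, 8.09 and 9.69 on the sham arrays at 3 days. The groups did not overlap, but by only 0.03 between MCAO array 1 and sham array 3, and the log2 fold of 1.73 ± 0.50 SE did not pass the test (adjusted p = 0.124). Vwf was at 8.21, 7.09 and 5.52 against 5.21, 5.17 and 5.67 (log2 1.59 ± 0.62 SE, adjusted p = 0.320). On the 4 dim arrays, a division chosen after the data were seen, both passed the test, with log2 folds of 2.25 for Rgs5 (adjusted p = 0.0112) and 2.46 for Vwf (adjusted p = 0.00161). On the bright pair they differed by 0.68 and -0.15. Cdh5 was at 5.61, 6.0 and 5.91 after MCAO and at 5.55, 5.21 and 5.17 after sham surgery, without overlap and not called (log2 0.53, adjusted p = 0.881). Pdgfrb was at 9.97, 10.30 and 12.18 after MCAO and at 11.63, 11.51 and 12 after sham surgery (log2 -0.90 ± 0.58 SE, adjusted p = 0.763). Acta2 had a log2 fold of 0.61, Cldn5 of 0.43, Kdr of 0.23, Flt1 of 0.20 and Pecam1 of 0.05, none of them called.

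At 7 days 0 of the 10 transcripts were called by limma, 1 at an unadjusted p under 0.05, and 1 of 10 when only the 6 arrays were fitted. The fit of the 6 arrays alone called 205 of all 15726 genes. Over all genes 0.0254% were called, which is 4 genes, all higher, and 6.68% had all MCAO arrays below all sham arrays. Tagln was at 7.32, 8.28 and 7.55 on the MCAO arrays and at 6.60, 5.88 and 5.88 on the sham arrays, without overlap, as for 9.65% of genes. Its log2 fold was 1.60 ± 0.48 SE (adjusted p = 0.521, and 0.0405 on the 6 arrays alone). Rgs5 was at 8.35, 9.41 and 9.35 after MCAO and at 7.75, 8.38 and 8.34 after sham surgery (log2 0.88 ± 0.50 SE, adjusted p = 1). The 6 endothelial transcripts had log2 folds between -0.15 and 0.21, all of whose MCAO and sham arrays overlapped, and their median was 0.06. Pdgfrb had a log2 fold of 0.00 ± 0.58 SE.

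Systemic LPS was compared with saline at 1 day, with 5 and 4 arrays. Of the 10 transcripts 1 rose, Rgs5, while 3.11% of all genes were called, 2.37% higher and 0.744% lower. Arrays did not overlap for 2.75% of genes. The median log2 fold of the 10 was 0.40 against 0.07 for all genes. Above 0 were 9 of the 10 and 9383 of all 15726 genes. Rgs5 was at 10.27, 11.20, 11.71, 10.72 and 9.77 on the LPS arrays and at 8.59, 9.77, 8.50 and 8.16 on the saline arrays. Only the lowest LPS array and the highest saline array met, at 9.77. It rose 3.94-fold (log2 1.98 ± 0.41 SE, adjusted p = 0.00602), and other Rgs5 probe sets gave log2 folds of 0.41, 1.22 and 1.3. The mean over its probe sets gave log2 1.23 (adjusted p = 0.0167).

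Leaving out any of the 9 arrays kept the Rgs5 call, with log2 folds from 1.73 to 2.32. On the bright injection arrays alone the log2 fold was 1.88 (adjusted p = 0.0868) and on the dim ones 1.92 (0.0849). It was 2.14 on the injection arrays low in Xist (0.107) and 1.92 on those high in Xist (0.973), and it was 1.98 on the 9 arrays alone (0.104). The size thus moved little while the call was lost in these smaller fits. Of the 17 tested pericyte list genes 0 were called, and the summed intensity of that list was 2753 to 4280 on LPS arrays and 2492 to 2967 on saline arrays, with 13 to 17 and 13 to 15 of 19 genes at or above log2 5. Its part in the Rgs5 result was not tested.

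Pdgfrb, the other pericyte transcript, was at 10.54, 11.90, 10.98, 11.31 and 8.11 on the LPS arrays and at 12.23, 11.75, 11.43 and 11.68 on the saline arrays. LPS array 5 was far below the rest. The log2 fold was -1.2 ± 0.48 SE (adjusted p = 0.190) and -0.59 without that array, and the second probe set gave -0.47. Cldn5 was at 8.25, 7.38, 9.30, 5.98 and 7.31 after LPS and at 6.04, 7.55, 6.21 and 6.51 after saline (log2 1.06 ± 0.52 SE, adjusted p = 0.313). Vwf had a log2 fold of 0.84 ± 0.51 (adjusted p = 0.438) and Acta2 of 0.66 ± 0.45 (0.496). LPS array 3 was the highest LPS array for Vwf (7.19), Cldn5 (9.30) and Acta2 (9.42). Cdh5 was higher on all LPS arrays than on any saline array, as for 1.88% of genes, at 5.04 to 5.91 against 4.75 to 5.00, but the log2 fold of 0.45 was not called (adjusted p = 0.570). Flt1, Kdr, Pecam1 and Tagln had log2 folds of 0.13, 0.36, 0.03 and 0.33.

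**Figure D4:**
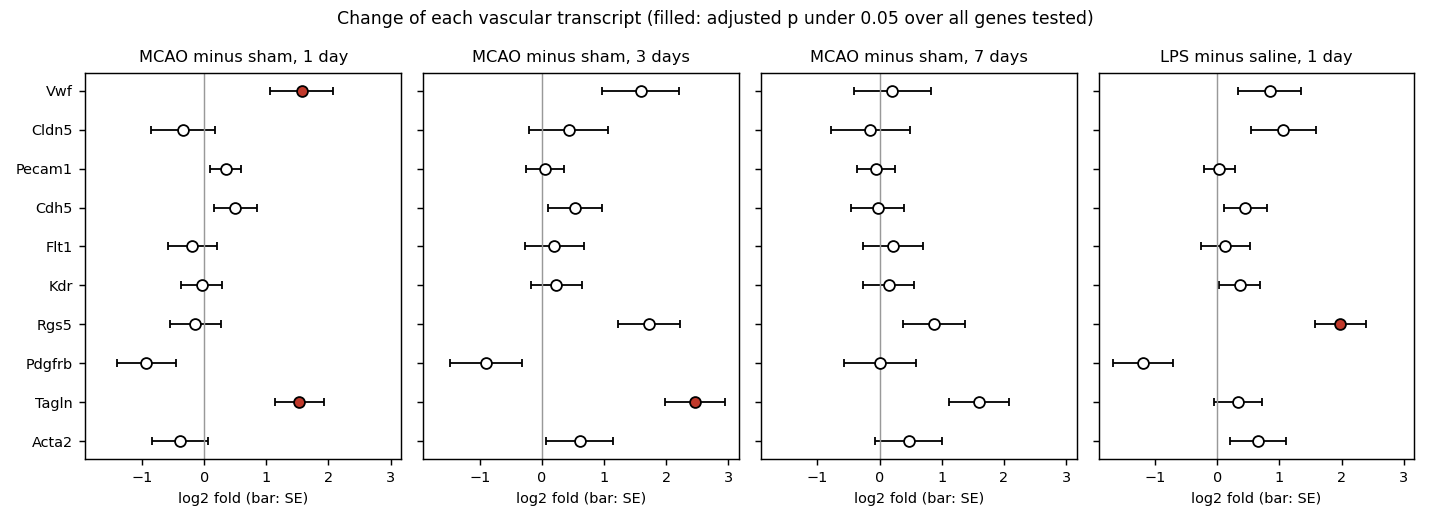
Points are log2 folds of the 10 transcripts with SE bars, MCAO over sham at 1, 3 and 7 days and LPS over saline at 1 day, and filled points are called. Vwf (1.57) and Tagln (1.53) are filled at 1 day, Tagln (2.46) at 3 days and Rgs5 (1.98) after LPS.

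A call in a comparison and its absence in another do not show that the effects differ, so the differences were tested. MCAO and LPS effects at 1 day differed in 1.39% of genes (0.693% with the MCAO effect higher and 0.699% lower), the MCAO effects at 3 days and 1 day in 0.00636%, and those at 7 days and 1 day in 0.356% (0.0636% higher at 7 days). Of the 10 transcripts 0 were called by limma in any of them, with 2, 1 and 0 at an unadjusted p under 0.05. Rgs5 came nearest, with an MCAO effect below the LPS effect by log2 -2.12 ± 0.59 SE (adjusted p = 0.0674). It passed the test with array weights (adjusted p = 0.00206) and with the brightness set as a covariate (0.0351). Of 18 fits that left out an array 3 passed, without LPS array 5 (0.0259), saline array 2 (0.0349) or MCAO array 4 (0.0417). In the others the adjusted p was up to 0.15. It did not pass with quantile normalisation, no filter, means of probe sets or Xist as covariate, nor with the compared arrays alone or without the arrays of number 4. Rgs5 averaged 11.11 in sham at 1 day and 8.76 after saline, so these effects start from unlike levels. The MCAO effect on Rgs5 was larger at 3 days than at 1 day by 1.87 ± 0.65 (adjusted p = 0.567). For Tagln the MCAO effect exceeded the LPS effect by 1.2 ± 0.56 (adjusted p = 0.358).

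Other genes of the vessel wall were read from lists chosen with earlier results of these data known. Counts within them are therefore not a test of the lists. Over all genes 6.49% were higher and 6.17% lower after MCAO at 1 day, 0.61% and 0.0636% at 3 days, and 2.37% and 0.744% after LPS. Of 24 endothelial identity genes 0 rose and 1 fell in MCAO at 1 day, Ramp2, an adrenomedullin co-receptor (log2 -0.91; adjusted p = 0.0258, and 0.129 with the pair block), and 0 were called in the other comparisons. The Ramp2 call was lost when MCAO array 1 or 2 or sham array 2, 3 or 4 was left out. Of the genes of activated or angiogenic endothelium 9 of 16 rose and 1 fell after MCAO at 1 day, with a list median of log2 1.19. The leukocyte adhesion molecule Icam1 rose by log2 2.91, the thrombin receptor gene Thbd by 3.29 and Lrg1, a secreted glycoprotein, by 3.60, and Apln, the ligand of the apelin receptor, fell by 1.70. Without the arrays of number 4 the counts were 8 and 2. The groups overlapped in the summed intensity of the list, at 9323 to 13924 on MCAO arrays and 10033 to 13110 on sham arrays. They did not overlap in its mean log2 level, at 7.5 to 8.46 on MCAO arrays and 6.55 to 7.17 on sham arrays. Several of these genes are also expressed outside endothelium. The neutrophil and monocyte markers had a summed intensity of 526 to 570 on MCAO arrays and 428 to 470 on sham arrays. Their mean log2 level was 5.8 to 5.91 and 5.48 to 5.65, with 7 to 8 and 5 to 7 of 8 genes at or above log2 5. Of these 8 genes 2 were called higher, and the median log2 fold was 0.12. The part of these markers in the changes of the activated list was not tested.

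At 3 days Thbd alone of these 16 rose (log2 1.91, adjusted p = 0.0327), while 6 did on the 4 dim arrays and 0 when the 6 arrays were fitted alone. Of all 15726 genes 867 were called on the dim arrays and 0 on the 6 arrays alone, against 106 in the main fit. On the bright pair Thbd differed by 0.13. The Thbd call was lost without MCAO array 1 or 2 or sham array 1 or 2 (log2 folds over the 6 such fits from 1.45 to 2.41, adjusted p up to 0.331). After LPS 4 of 16 rose, among them Lrg1 (3.97), Icam1 (3.59) and the protein C receptor gene Procr (2.09), and 2 of 16 did when the 9 arrays were fitted alone, where Icam1 had an adjusted p of 0.0666. Of 19 blood-brain barrier genes 3 fell at 1 day after MCAO, the lipid transporter Mfsd2a (-0.96), Bsg (-0.93) and the junction protein gene Jam2 (-0.85). Mean levels in MCAO and sham were 12.55 and 13.51 for Mfsd2a, 9.53 and 10.45 for Bsg, and 11.36 and 12.21 for Jam2. Sham levels of Mfsd2a and Jam2 were thus above that of Cldn5 (10.42). Which cells these signals came from was not tested. Mfsd2a kept its call in the fit with the pair block, where 1 of 19 fell. Leaving out an array kept the Bsg call only for MCAO arrays 3 and 5 and sham array 2, and the Jam2 call only for MCAO array 5 and sham array 3 (adjusted p up to 0.127 and 0.117). The count of falling barrier genes was 1 without the arrays of number 4, 5 without LPS array 5 and 7 without the Xist-high arrays. Of all 15726 genes 1517 were called without the arrays of number 4 and 3618 without the Xist-high arrays, against 1991 in the main fit. Mfsd2a fell at 3 days as well (-1.04, adjusted p = 0.0346) and Jam2 after LPS (-1.08, adjusted p = 0.0287), and each call was lost when only the arrays of its own comparison were fitted (0.437 and 0.6). Leaving out MCAO array 1 or 2 or sham array 1 or 2 ended the 3-day Mfsd2a call (adjusted p up to 0.325). Leaving out saline array 2, 3 or 4 ended that of Jam2 after LPS (up to 0.0824), as did leaving out the Xist-high arrays (0.306).

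Among ligands and co-receptors of the receptors studied here, Vegfa and Vegfb, ligands of Flt1 and of Kdr (Vegfa) or of Flt1 (Vegfb), fell at 1 day after MCAO by 1.24 and 0.99. Angpt1, a ligand of Tek, rose after MCAO at 1 day (1.13) and after LPS (2.10), and Pgf, a ligand of Flt1, rose after LPS (1.14). Without the arrays of number 4 the counts at 1 day were 0 higher and 1 lower, with Vegfa at -0.88 (adjusted p = 0.162) and Angpt1 at 1.15 (0.0507). The Vegfa call was also lost without MCAO array 4 or sham array 3 alone, and the 1-day Angpt1 call without sham array 1 or 4. After LPS 0 of 17 were called without the Xist-high arrays, where Angpt1 had a log2 fold of 2.2 (adjusted p = 0.0524) and Pgf of 1.31 (0.0995), and 1 of 17 on the compared, bright or dim arrays alone. The Pgf call was lost without LPS array 1 or saline array 3 or 4 (adjusted p up to 0.0781). The other 14 of the 17 list genes at 1 day after MCAO and 15 of 17 after LPS were not called. Of the pericyte list 1 gene fell in MCAO at 1 day, Gper1 (-0.85, adjusted p = 0.0499; 0.248 with the pair block), a call kept only without MCAO array 3 or 4 when an array was left out. The smooth muscle list gave Mylk, myosin light chain kinase, higher after LPS (1.61, adjusted p = 0.00823; 0.395 on the 9 arrays alone). Markers of other cells were read in the same way. Of 12 astrocyte markers Gfap, the intermediate filament of reactive astrocytes, rose after MCAO at 1 day (1.69) and after LPS (1.87; adjusted p = 0.253 on the 9 arrays alone), and Gjb6 and Slc1a3 fell after MCAO at 1 day (-0.63 and -0.52). The Slc1a3 call was lost without MCAO array 4 or sham array 1 or 4. Of 12 tested microglia and macrophage markers only the phagocyte gene Cd68 rose after MCAO at 1 day (1.98), and the median log2 fold of that list was 0.06. Il1r2 of the 8 neutrophil and monocyte markers rose then as well (0.87). S100a8 passed the test too (0.87, adjusted p = 0.0469), but lost its call in 9 of 9 fits that left out an array (adjusted p from 0.0554 to 0.112). Of 9 tested oligodendrocyte markers Aspa and Cnp fell then (-1.17 and -0.69). Of 7 tested precursor markers Cacng4 fell at 1 day (-1.12) and C1ql1 rose at 7 days (1.81). The Cnp call was lost without MCAO array 1 or 2 or sham array 3 or 4, and that of Cacng4 with the pair block (adjusted p = 0.0582). Of 10 neuronal, 10 fibroblast and 1 erythroid marker tested 0 were called in the 4 comparisons. In these bulk samples fewer cells of a type and less RNA per cell cannot be told apart.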

How the data were processed

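The values were the authors' deposited intensities, 1 per probe set and array on a linear scale from 9 to 35553, normalised with RMA per the submitters' processing notes (version not stated). RNA had been amplified and labelled with a 2-cycle kit per the labels' protocols. Here log2 was taken. Of 45037 probe sets 34945 had 1 symbol, and per gene the brightest was used. A single limma model (limma 3.58.1, R 4.3.3) of 8 group means over the 30 arrays (22 residual degrees of freedom) gave the differences, with Benjamini-Hochberg adjustment over 15726 genes and calls at an adjusted p under 0.05, 2-sided. The code was tested on simulated data. Arrays have no read depth, so their number limits the precision.

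The members and the 14 lists were chosen with earlier results of these data known. Named genes were all 10 members, up to 3 called genes of largest change per list and comparison, and the 3 genes most like each class mean; Apln was chosen after its value was seen.

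Replicate numbers were checked by correlating deviations from group means. Description numbers of the 1-day surgery arrays paired samples (r = 0.23, 0.19, 0.50 and 0.16), a pairing that comes from the data and a shared label, and title numbers did not. Alternatives were quantile normalisation, no filter, means of probe sets, smaller fits, array weights, replicate blocks and leaving out arrays. Divisions by summed intensity, Xist and description number 4 were chosen after seeing the data.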

Additional observations from a re-analysis of the deposited data

Results flagged for a closer look

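Sham array 3 of 1 day lay far from the other sham arrays of its group for Vwf (8.46, nearest 6.64), Pecam1 (6.30, nearest 5.32), Cdh5 (7.38, nearest 5.73) and Flt1 (10.60, nearest 8.65), all in log2 intensity. LPS array 1 did so for Cdh5 (5.91, nearest 5.29). These were 5 of 40 groups of arrays tested over the 10 transcripts, where chance alone marks about 1 in 20, and 4 of the 5 are the same array.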

How the results depend on the processing

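Few arrays and a spread pooled over groups of unequal spread limit these calls. Over the alternatives, 690 member values gave 616 on the same side of the threshold, 21 that lost a call, 14 that gained one and 39 uncalled values that changed sign, and no called value reversed. Genes called after MCAO at 1 day numbered 1991, against 5180 with the compared arrays alone, 6161 with array weights, 1218 with the replicate block by description number, 3618 without the Xist-high arrays and 1367 to 1914 when an array was left out. At 3 days there were 106, against 0 alone, 1937 with weights, 10 with the replicate block by title number, 0 on the bright and 867 on the dim arrays, and 3 to 650. At 7 days there were 4, against 14 with quantile normalisation, 2 with no filter, 7 with means of probe sets, 205 alone, 525 with weights, 1 with the title block, 17 with the brightness set as covariate, and 2 to 7. After LPS there were 489, against 65 alone, 1660 with weights, 836 with the brightness set as covariate, 117 on the dim arrays, 276 without the Xist-high arrays, 8 on these alone, and 225 (without saline array 4) to 990 (without LPS array 3). Of calls after LPS 76.1% were higher, and 65.7% with quantile normalisation.

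Members called at 1 day numbered 2, against 4 with weights, 1 without the Xist-high arrays or with Xist as covariate, and 1 to 2 when an array was left out. Of all 15726 genes 6161 were called with weights, 3618 without the Xist-high arrays and 2134 with Xist as covariate, against 1991 in the main fit. At 3 days there was 1, against 0 alone and with the title block, 4 with weights, 3 on the dim arrays, and 0 to 2. The fits with weights and on the dim arrays called 1937 and 867 of all genes, against 106 in the main fit. At 7 days there were 0, against 1 alone and with weights, and 0 in each fit without an array. The fits alone and with weights called 205 and 525 of all genes, against 4 in the main fit. After LPS there was 1, against 0 alone, on the bright arrays, on the dim arrays, without the Xist-high arrays and on the Xist-high injection arrays alone, and 1 in each fit without an array. Differences between MCAO and LPS effects gave 1 with weights, the title block or the brightness covariate, and 0 to 1 without an array. Those between 3 days and 1 day and between 7 days and 1 day gave 2 each with weights and 0 without an array. With the replicate block by title number Pdgfrb at 1 day passed the test (adjusted p = 0.0356), as did the difference of Rgs5 effects (0.0398), and Tagln at 3 days did not (0.0907). Title numbers shared by the groups did not pair samples, with r from -0.40 to 0.42, and the block by description number changed no other member's call than Pecam1's.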
